A study of Mus musculus with 22 samples.

Results

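Trpm5 tuft-like microvillous cells are rare epithelial cells of the olfactory epithelium (OE), the sensory sheet of the nose. They were picked from single-cell RNA-seq (scRNA-seq) of whole OE by a rule on unique molecular identifiers (UMIs, each of which stands for 1 captured RNA molecule). Cells were kept where over 500 genes and over 1500 UMIs were counted and mitochondrial genes held under 20% of the UMIs. A Trpm5 cell was a kept cell with at least 3 UMIs of Trpm5, Sh2d6, Pou2f3 and Avil in sum, with less than 0.5% of its UMIs from the sustentacular genes Cyp2g1, Cyp2a5 and Sec14l3 and with less than 5% from the neutrophil genes S100a8 and S100a9. The rule found 151 Trpm5 cells among 25185 kept cells and 32293 deposited barcodes. They comprised 40 of 9147 kept WT cells and 111 of 16038 kept Upf3b-null cells.

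The scRNA-seq samples were 4 WT and 4 Upf3b-null mice, each a separate library. All were C57BL/6 males (C57BL/6J in the study's methods) of 7 to 8 weeks, Upf3b+/y or Upf3b-/y by the study's methods (wild type or Upf3b-/- in the labels), and carried no other stated allele or treatment. The null allele was not limited to a cell type, so a cell-autonomous effect cannot be told apart from one of the surrounding tissue. UPF3B is a factor of nonsense-mediated RNA decay (NMD), and the study asked what its loss does to OE cells. Libraries held between 5024031 and 27673674 UMIs (WT replicate 2 and Upf3b-null replicate 1).

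Tuft cells are chemosensory epithelial cells of hollow organs. They read luminal substances through taste-type G protein signalling that ends at the cation channel TRPM5, and answer with the cytokine IL-25, eicosanoids and acetylcholine. Their identity depends on the transcription factor POU2F3. In the nose, cells of this kind include the Trpm5 microvillous cells of the OE and the solitary chemosensory cells of the respiratory lining, while a second microvillous class of the OE resembles ionocytes, the ion-transporting cells marked by Foxi1, Ascl3 and Cftr.

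WT replicate 3 stood apart from the other libraries before any comparison. Only 41.6% of its 6707 barcodes were kept, against 73.5% to 97.7% in the other 7, and 1719 of its barcodes failed on the mitochondrial limit alone. It held 0 Trpm5 cells of 2791 kept cells, a count that allows a share of up to 0.132% (exact Clopper-Pearson upper bound, counting error only). A floor of 3 cells would be 0.107%. The 0 depends on the limits, since this mouse held 1 Trpm5 cell without the mitochondrial limit and 2 with at least 2 marker UMIs. The 1 kept cell of this mouse with 3 or more marker UMIs had 5 and was left out by 1 of the limits on sustentacular or neutrophil genes. Of 31657 different barcode sequences in the series 628 were found in more than 1 library, and 7 Trpm5 cells carried such a barcode, none of them shared with another Trpm5 cell. Upf3b itself followed the labels. Levels are given in CPM, the UMIs of a gene in the summed cells of a class or mouse scaled to a common total. Kept cells of WT mice held 2268 Upf3b UMIs (75.8 CPM) and those of Upf3b-null mice 45 (0.736 CPM). In the Trpm5 cells there were 2, 1 and 8 Upf3b UMIs in WT replicates 1, 2 and 4, and 1, 0, 0 and 0 in Upf3b-null replicates 1 to 4.

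The 4 rule genes chose the cells, so their levels are a description. Trpm5, the cation channel, was found in 72.2% of the cells, Sh2d6, an SH2-domain adaptor, in 80.1%, Avil, the actin-binding protein advillin, in 69.5%, and Pou2f3 in 33.1%. Trpm5 stood at 469.8, 733 and 508 CPM in the 3 WT mice with Trpm5 cells (replicates 1, 2 and 4) and 355, 624, 561.6 and 414 in Upf3b-null replicates 1 to 4. Of the 151 cells 10 had UMIs of 1 of the 4 markers, 62 of 2, 65 of 3 and 14 of all 4. A Trpm5 cell had a median of 2347 UMIs in all (1504 to 16546), against 2914.5 in the ionocyte-like and 2850 in all kept cells, and a median of 4 marker UMIs (at most 14). The limit of 3 marker UMIs divides a continuous range. At exactly 3 there were 58 cells, of which 93.1% had a UMI of Rgs13 and 86.2% of Lrmp, and just outside it lay 59 cells with 2 marker UMIs, of which 78.0% had Rgs13 and 74.6% Lrmp. A further 31 kept cells with 3 or more marker UMIs were left out, 22 for sustentacular and 9 for neutrophil genes, and these were large (median 7378 UMIs).

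The label was set beside 30 genes of a tuft cell signature that the rule did not use. This list was chosen with earlier results of these data known, so the counts are a description and not an independent check. Leaving out Gng13, which olfactory neurons also express, a Trpm5 cell had UMIs of a median of 14 of the other 29, an ionocyte-like cell of 5, a sustentacular-like cell of 4 and any other kept cell of 2. After each cell was thinned to 1500 UMIs these medians were 10, 4, 2 and 1. At least 10 of the 29 genes were found in 135 Trpm5 cells and in 0.520% of the ionocyte-like, 1.03% of the sustentacular-like and 1.32% of the other kept cells. The most abundant were Gng13 (2654 CPM), the keratin gene Krt18 (1603), Lrmp (1488), Rgs13 (1391), Plac8 (742) and Alox5ap (654). Lrmp, which encodes an endoplasmic reticulum protein of lymphoid and taste cells, was found in 90.1% of the Trpm5 cells and Rgs13, a regulator of G protein signalling, in 89.4%. In ionocyte-like cells these shares were 2.47% and 2.15%. The fewest of the 29 genes were found in a cell of WT replicate 4 with 5 Pou2f3 UMIs, no UMI of the other 3 rule genes and 3 of the 29 genes.

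**Figure D1:**
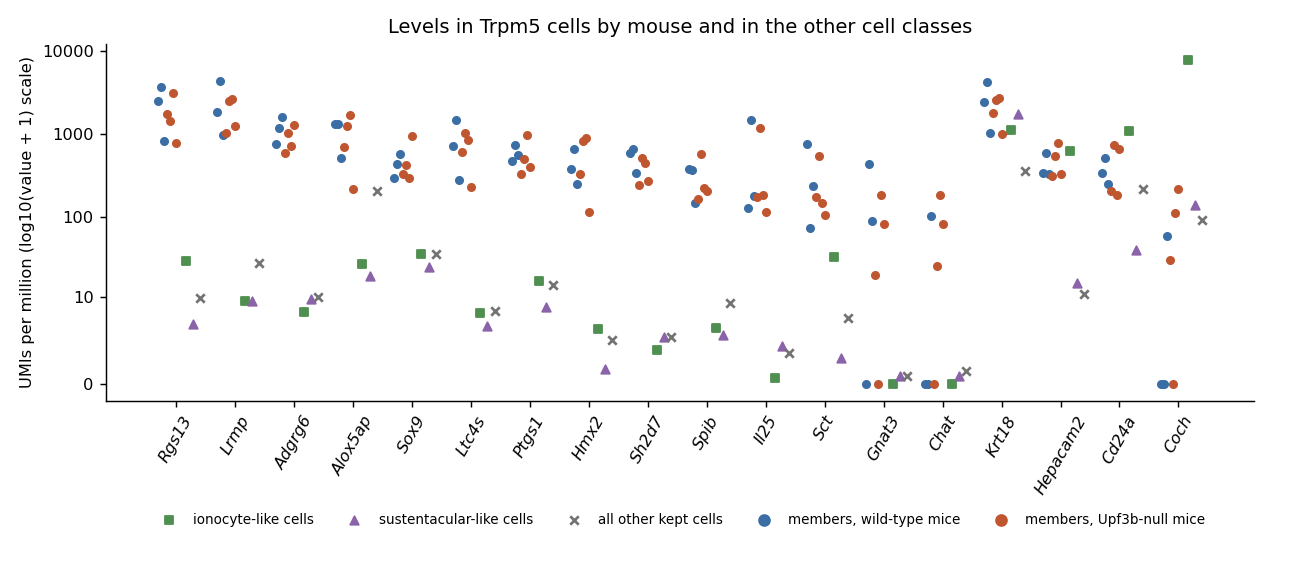
Level of 18 genes in CPM, on a log10(value + 1) scale. Round points are the Trpm5 cells of single mice (blue, 3 WT; orange, 4 Upf3b-null), and the other symbols are all ionocyte-like, sustentacular-like and remaining kept cells. Rgs13, Lrmp and Adgrg6 lie above every other class in all 7 mice, while Krt18 and Hepacam2 lie on both sides of the ionocyte-like level and Cd24a and Coch lie below it.

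Across the 4 cell classes of each mouse (31 points from 8 mice, which share libraries and depth) the genes whose level in log2(CPM + 20) was most like that of Trpm5 were Sh2d7 (Pearson's r = 0.995), the rule genes Avil (0.992) and Sh2d6 (0.992), Pla2g4a (0.990), Rassf6 (0.987), Adgrg6 (0.987), Lrmp (0.986) and Ly6g6f (0.984), out of 3673 genes compared. Trpm5 was among the genes that chose 1 of the 4 classes, so a gene high in that class has a high r by the rule, and the order is a description. Sh2d7 encodes a further SH2-domain adaptor and Adgrg6 an adhesion G protein-coupled receptor. Adgrg6 was found in 90.7% of the Trpm5 cells.

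To ask what separates both microvillous classes, the Trpm5 cells were set against 1538 ionocyte-like cells (at least 3 UMIs of Foxi1, Ascl3, Cftr and Moxd1, under 3 of the Trpm5 cell markers and the same limits on sustentacular and neutrophil genes). UMIs were summed per mouse and class and tested with edgeR's quasi-likelihood test with the mouse as a block, in the 5 mice with at least 10 cells of each class (WT replicate 4 and the 4 Upf3b-null mice). Of 4510 genes tested 1078 passed (23.9%), of which 462 were higher in Trpm5 cells (10.2% of the genes tested) and 616 lower (13.7%), at an adjusted p under 0.05. With at least 5 cells of each class, a limit chosen after the data were seen that let in WT replicates 1 and 2, 516 of 5228 genes were higher (9.87%) and 830 lower (15.9%, 25.7% in either direction). The genes of either rule are not read. The tuft signature had 20 genes higher, 4 lower and 5 not passing of 29 tested, with a median log2 fold change of 4.50 against -0.06 for all genes tested. The 4 lower were Cd24a (-1.60 on the log2 scale), Reep5 (-1.85), Tmem176a (-1.06) and Tmem176b (-1.14). Genes nearly absent from 1 class passed the filter on low counts through the other class alone, so their calls here and below are a description. Gnat3 and Il25 of the signature, with a UMI in 0 and 1 of the 1538 ionocyte-like cells, are such genes. Krt18 (log2 fold change 0.28 ± 0.16, adjusted p = 0.220) and Dclk1 (0.79 ± 0.30, adjusted p = 0.0520), a kinase often used to mark intestinal tuft cells, did not pass in edgeR.

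The arm of the tuft programme that makes eicosanoids, the lipid mediators cut from membrane arachidonate, held 7 genes that could be tested. Of these 6 were higher in Trpm5 cells and 1 lower, beside 10.2% and 13.7% of all genes tested. Ptgs1, which encodes cyclooxygenase 1, stood at 469.8, 733 and 568 CPM in the 3 WT mice with Trpm5 cells (replicates 1, 2 and 4) and 335, 499, 973 and 409 in Upf3b-null replicates 1 to 4 and at 16.2 in all ionocyte-like cells together (0 to 23.3 by mouse). No mouse's Trpm5 cells fell within the range of the ionocyte-like cells (log2 fold change 4.74 ± 0.26, adjusted p = 7.60e-22, edgeR). Ltc4s, the leukotriene C4 synthase, stood at 726, 1466 and 284 CPM in WT replicates 1, 2 and 4 and 612, 1023, 861 and 234 in the Upf3b-null mice and at 6.14 in ionocyte-like cells (log2 fold change 5.99 ± 0.31, adjusted p = 5.55e-23, edgeR). Also higher were Pla2g4a, the cytosolic phospholipase that releases arachidonate (6.72 on the log2 scale), Alox5, the 5-lipoxygenase (5.11), its activating protein gene Alox5ap (4.31) and the prostaglandin D synthase gene Hpgds (4.005). Ptges, the prostaglandin E synthase gene, had no UMI in the Trpm5 cells, and it was the 1 lower gene. It could enter the test through the ionocyte-like cells alone, so its call is a description and no fold is given. The receptor genes Cysltr2 and Oxgr1 were at 0 as well.

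Of 10 transcription factor genes tested, Foxi1 and Ascl3 of the ionocyte rule left out, 7 were higher in Trpm5 cells and none was lower, with a median log2 fold change of 3.46. Over all genes tested 10.2% were higher and 13.7% lower, with a median of -0.06. Sox9, a regulator of epithelial progenitors and glands, was the most abundant, at 299, 439.8 and 583 CPM in WT replicates 1, 2 and 4 and 335, 424, 299.5 and 939.8 in the Upf3b-null mice against 35.7 in the ionocyte-like cells (log2 fold change 3.79 ± 0.25, adjusted p = 4.93e-19, edgeR). The homeobox gene Hmx2 was found in 58.9% of the Trpm5 cells and stood at 384, 659.7 and 254 CPM in WT replicates 1, 2 and 4 and 335, 823, 899 and 117 in the Upf3b-null mice. Its ionocyte-like level was 3.57, and the difference on the log2 scale was 5.92 ± 0.45, adjusted p = 1.24e-08 (edgeR). Spib, an ETS factor also needed by intestinal M cells, rose by 5.24 on the log2 scale, Ehf by 3.12, Gfi1b by 3.83, Ascl2 by 6.15 and Myb by 2.43 over the ionocyte-like cells. Runx1 (0.62 ± 0.26, adjusted p = 0.0788), Etv1 (1.65 ± 0.73, adjusted p = 0.134) and Nfatc1 (1.07 ± 0.46, adjusted p = 0.0828) did not pass in edgeR.

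Taste-type transduction was found in part. Of 19 genes on that list 12 had a UMI in the Trpm5 cells and 5 could be tested. Rgs13, Gnat3 and Gnai2 were higher, Itpr3 was lower and Gng13 did not pass, beside 10.2% higher and 13.7% lower of all genes tested. Gng13, the G protein gamma subunit of taste and olfactory signalling, was the most abundant of the list (2654 CPM), at 862 in ionocyte-like cells (log2 fold change 1.86 ± 0.55, adjusted p = 0.0877, edgeR). Rgs13 stood at 2520.1, 3665 and 837 CPM in WT replicates 1, 2 and 4 and 1766, 1422, 3108 and 776 in the Upf3b-null mice and at 28.7 in ionocyte-like cells (log2 fold change 5.18 ± 0.59, adjusted p = 0.00324, edgeR). Plcb2, the phospholipase C of taste cells, was found in 15 Trpm5 cells with 16 UMIs in all. The taste receptor gene Tas2r131, the succinate receptor gene Sucnr1, the short-chain fatty acid receptor genes Ffar2 and Ffar3, Vmn2r26, Calhm1 and Calhm3 had no UMI in 443454 UMIs of Trpm5 cells.

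Adaptors and kinases better known from blood cells made up another group. Of 12 tested 10 were higher in Trpm5 cells, none lower and 2, Rac2 and Lcp1, did not pass, with a median log2 fold change of 3.90. All genes tested had 10.2% higher and 13.7% lower, with a median of -0.06. Besides Lrmp (7.03 ± 0.52, adjusted p = 8.94e-05, edgeR) abundant members were the phosphatase gene Ptpn18 (656 CPM, found in 80.8% of cells), the adaptor gene Fyb (266), the phosphatase gene Ptpn6 (226) and the exchange factor gene Vav1 (196). Ptprc, the pan-leukocyte gene CD45, had 56.4 CPM in Trpm5 cells against 91.6 in the remaining kept cells. It was higher than in sustentacular-like cells (log2 fold change 1.65 ± 0.52, adjusted p = 0.0168, edgeR) and did not pass against ionocyte-like cells (1.10 ± 0.48, adjusted p = 0.0912, edgeR). The macrophage genes C1qa, C1qb and C1qc were likewise higher than in sustentacular-like cells (2.53, 2.86 and 3.21 on the log2 scale) and did not pass against ionocyte-like cells, and the B cell gene Cd79b was higher than in both (3.16 and 2.72). Lyz2, the most abundant macrophage gene, passed against neither (1.39 and -1.71 on the log2 scale, adjusted p = 0.394 and 0.349, edgeR). The T cell and innate lymphoid genes Cd3e, Cd3g, Gata3 and Il7r and the mast cell and basophil genes Cpa3, Mcpt4, Tpsb2, Fcer1a, Ms4a2 and Cma1 were all at 0, while Rora of the former list was at 31.6 CPM.

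Of the microvillus and cytoskeleton list 10 genes were tested, of which 1 was higher and 3 were lower, beside 10.2% and 13.7% of all genes tested. Espn, which encodes the actin bundler espin, was higher (1.38 ± 0.20, adjusted p = 2.58e-07, edgeR), and Ezr (-0.92) and Gsn (-3.15) were among the lower. Krt18 and Krt8 were abundant in both classes, at 1603 and 961 CPM in Trpm5 cells and 1113 and 591 in ionocyte-like cells. Vil1, the villin gene of intestinal brush borders, and Cdhr2 were at 0.

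By a rule of size, 20 genes higher in Trpm5 cells in each of the 5 mice and found in at least 25% of them were named, with log2 fold changes of 5.02 to 8.38. Besides those above they included Ly6g6f (7.69), a lymphocyte antigen family member, the folate receptor gene Folr1 (7.44), 1810046K07Rik (6.85), the calmodulin-binding gene Nrgn (6.77), the polo-like kinase gene Plk2 (6.49), the phosphoinositide kinase gene Pik3cg (6.09), the mitochondrial calcium uniporter subunit gene Ccdc109b (6.08), the immediate early gene Fosb (5.69) and the Ras-association gene Rassf6 (5.02). Immediate early genes also respond to tissue dissociation, and the part of the preparation in the level of Fosb was not tested.

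Of the 8 genes named as lower, 5 had no UMI in the Trpm5 cells of these 5 mice, so each fold is a bound set by 3 UMIs over all 5. Of these the proton pump subunit gene Atp6v0d2 was at least 21.1-fold lower than in ionocyte-like cells, the forkhead gene Foxi2 at least 19.8-fold, the lectin gene Asgr1 at least 17.5-fold and the ectonucleotidase gene Nt5e at least 17.2-fold. Coch, which encodes cochlin, stood at 0, 0 and 59.8 CPM in WT replicates 1, 2 and 4 and 29.6, 0, 112 and 222 in the Upf3b-null mice in Trpm5 cells and at 4895 to 10893 in the ionocyte-like cells of the 8 mice (log2 fold change -6.48 ± 0.68, adjusted p = 0.00336, edgeR). Gm933 (-6.83) and the epithelial sodium channel gene Scnn1b (-6.11) were lower as well. Of the ionocyte marker list outside the rule all 8 genes tested were lower, beside 13.7% of all genes tested. The smallest difference was in Hepacam2 (-0.69 ± 0.20, adjusted p = 0.00602, edgeR), which was found in 66.2% of the Trpm5 cells at 383 CPM. At least 3 UMIs of the ionocyte rule genes occurred in 2 Trpm5 cells.

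**Figure D2:**
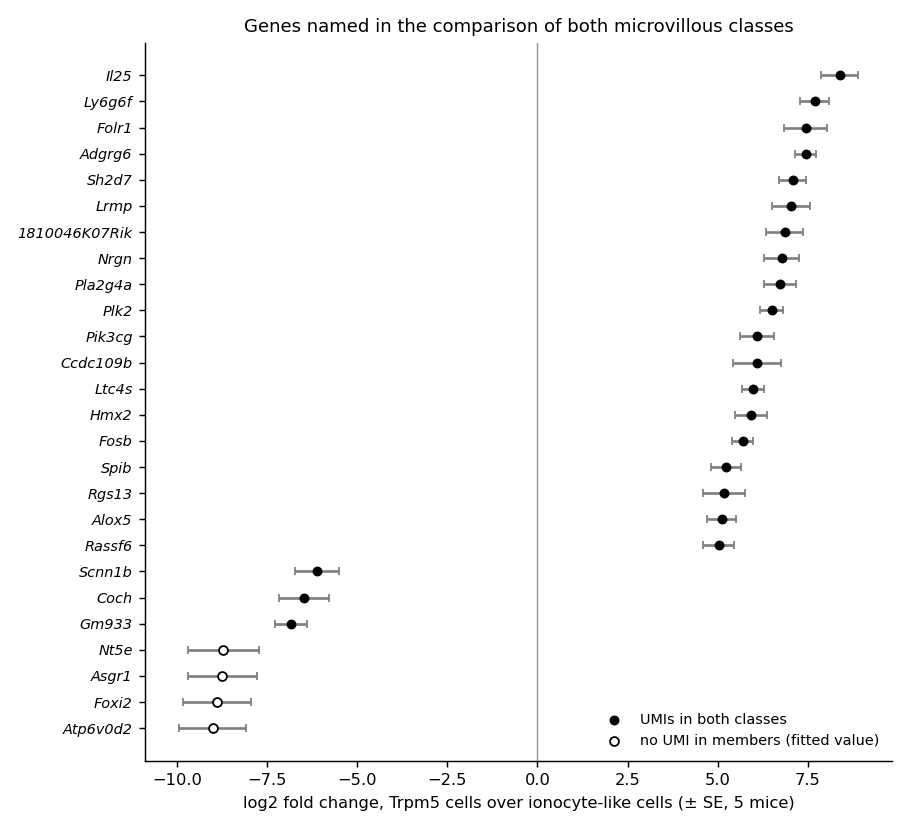
Log2 fold change (x axis, ± SE, edgeR, 5 mice) of Trpm5 cells over ionocyte-like cells for 19 of the 20 genes named as higher and 7 of the 8 named as lower. Open points had no UMI in Trpm5 cells, so their fitted value is not a bound. Il25 is at the top (8.38) and Atp6v0d2 at the bottom (-9.02).

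Set against 681 sustentacular-like cells, the supporting cells of the OE (at least 2% of UMIs from Cyp2g1, Cyp2a5 and Sec14l3), 525 of 3844 genes were higher in Trpm5 cells (13.7%) and 763 lower (19.8%, 33.5% in either direction) in the same 5 mice. With at least 5 cells of each class 563 of 4075 were higher (13.8%) and 921 lower (22.6%, 36.4% in either direction). Outside the rule genes 310 genes were higher than in both classes, 67.8% of the 457 higher than in ionocyte-like cells and 59.5% of the 521 higher than in sustentacular-like cells. Both comparisons share the Trpm5 cells. The tuft signature had 25 genes higher, 1 lower (Krt23) and 3 not passing of 29 tested, with a median log2 fold change of 4.80 against -0.03 for all genes. The named genes with the largest difference, all higher than in both classes, were Hmx2 (7.90 ± 0.44, adjusted p = 4.80e-13, edgeR), Rgs13 (7.86), Sh2d7 (7.05), Lrmp (6.67), Sct (6.65), Chil1 (6.58), Ly6g6f (6.56), Ltc4s (6.52), Col9a3 (6.43) and Nkd1 (6.32). Of these Hmx2, Sct, Col9a3 and Nkd1 had only 2, 3, 2 and 2 UMIs in the sustentacular-like cells, so their calls and order are a description. Chil1 encodes a chitinase-like protein and Nkd1 an inhibitor of Wnt signalling. Cd24a, lower than in ionocyte-like cells, was higher than in sustentacular-like cells (2.61 ± 0.36, adjusted p = 3.80e-05, edgeR), and so were Tmem176a (1.01) and Tmem176b (0.86). Hepacam2 was also higher than in sustentacular-like cells (4.08 ± 0.30, adjusted p = 7.53e-11, edgeR). Il33, an alarmin gene at 901 CPM in sustentacular-like cells, was at 29.3 in Trpm5 cells (log2 fold change -5.27 ± 0.32, adjusted p = 2.52e-12, edgeR).

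Il25, Sct, Gnat3 and Chat were each found in a minority of the Trpm5 cells. Il25, the type 2 alarmin gene, had UMIs in 43 of 151 cells (28.5%), Sct, which encodes the hormone secretin, in 55 (36.4%), Gnat3, the taste G protein gustducin, in 25 (16.6%) and Chat, the acetylcholine synthase gene, in 24 (15.9%). After thinning to 1500 UMIs the shares were 18.5%, 26.5%, 9.93% and 11.9%, against 0%, 2.93%, 0% and 0% in the 1538 ionocyte-like cells. A share of 0 among the ionocyte-like cells allows up to 0.240% (exact Clopper-Pearson upper bound, counting error only). Each share of the Trpm5 cells lay above that of the ionocyte-like cells, and a cell without a UMI may still express the gene at this depth.

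Il25 stood at 128, 1466 and 179 CPM in WT replicates 1, 2 and 4 and 178, 1173, 187 and 117 in the Upf3b-null mice. Upf3b-null replicate 2 and WT replicate 2 were high, and the other 5 mice lay together. Its 125 UMIs were unevenly held, with 64.0% in 10 cells and at most 15 in 1 cell. In all ionocyte-like cells together Il25 had 1 UMI, and in the 5 mice of the fit its ratio of CPM was 929 (95% counting interval 163 to 37043). Il17rb, a subunit of the IL-25 receptor, was higher in Trpm5 cells as well (6.36 ± 0.78, adjusted p = 2.36e-09, edgeR), as were Il13ra1 (2.88), Il4ra (2.43) and Il10rb (1.27), while Tslp and Siglecf were at 0.

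Sct stood at 769, 73.3 and 239 CPM in WT replicates 1, 2 and 4 and 178, 549, 149.8 and 105 in the Upf3b-null mice. Chat stood at 0, 0 and 105 CPM in WT replicates 1, 2 and 4 and 0, 24.95, 187 and 81.7 in the Upf3b-null mice. Chat was found in 13 of 51 cells of Upf3b-null replicate 4, 6 of 24 of WT replicate 4, 4 of 13 of Upf3b-null replicate 3 and 1 of 16 of Upf3b-null replicate 2, and in 0 of 31 cells of Upf3b-null replicate 1, 0 of 9 of WT replicate 1 and 0 of 7 of WT replicate 2. Cells low in UMIs of other cell types had under 0.5% of UMIs from olfactory neuron, erythroid, macrophage and B cell genes. Upf3b-null replicate 4, WT replicate 4 and Upf3b-null replicate 3 held 2, 2 and 0 such Trpm5 cells. The Chat share thus rests mostly on mice in which few Trpm5 cells met that limit. In the 322, 358 and 105 ionocyte-like cells of these mice Chat had no UMI, and 0.149% of the remaining kept cells of the series had one. The part of other RNA in the Chat share was not tested. The choline transporter gene Slc5a7 and the cholinesterase genes Ache and Bche were at 0. Gnat3 stood at 0, 439.8 and 89.7 CPM in WT replicates 1, 2 and 4 and 19.7, 0, 187 and 81.7 in the Upf3b-null mice, with no UMI in WT replicate 1 and Upf3b-null replicate 2. The genotypes overlapped in all 4 genes.

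Cells with UMIs of 2 of these genes were counted beside the shares over all Trpm5 cells. Il25 and Gnat3 were both found in 5 cells, 11.6% of the Il25 cells and 20% of the Gnat3 cells. Il25 and Chat met in 4 cells (9.30% and 16.7%), Gnat3 and Chat in 5 (20% and 20.8%), Il25 and Sct in 18 (41.9% and 32.7%), Chat and Sct in 9 (37.5% and 16.4%), and Gnat3 and Sct in 4 (16% and 7.27%). At this depth a gene is missed in many cells that express it, so these counts are not a division into types.

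**Figure D3:**
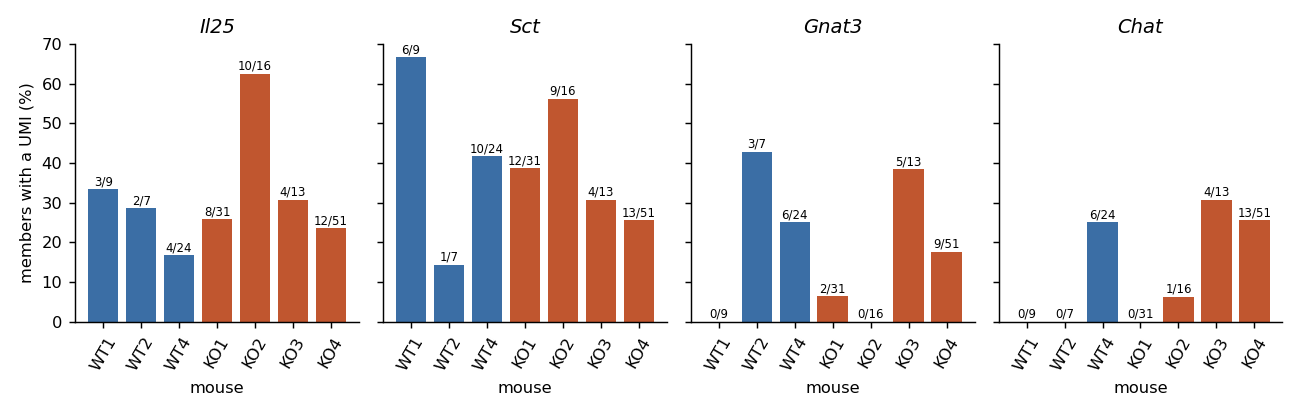
Percent of Trpm5 cells with at least 1 UMI of Il25, Sct, Gnat3 and Chat in each of the 7 mice with Trpm5 cells (blue, WT; orange, Upf3b-null). The numbers over the bars are cells with a UMI over all Trpm5 cells of the mouse. Il25 is found in 10 of 16 cells of Upf3b-null replicate 2, and Chat in none of the 31 cells of Upf3b-null replicate 1.

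A pair of Trpm5 cells from Upf3b-null replicate 4 differed from the rest in their taste genes, as was seen on going through the values. They held all 13 UMIs of Rgs21, a regulator of G protein signalling known from taste cells. It had 0 UMIs in the other Trpm5 cells and in the 25034 kept cells that were not Trpm5 cells. The pair also held 26 of the 27 Gnb3 UMIs of the Trpm5 cells (a G protein beta subunit gene of taste cells) and 7 of the 33 Gnat3 UMIs. Rgs13 had 1 UMI and Adgrg6 1 UMI in the pair (79.2 CPM each, against 832 and 1386 in the other Trpm5 cells of that mouse). Gng13 and Lrmp were at 3168 and 1346 CPM, against 2256 and 1248. Trpm5 had 4 and 1 UMIs and Pou2f3 2 and 3. The first of the pair also held 278 UMIs of Reg3g, a secreted lectin gene of the gland and respiratory list.

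The share of Trpm5 cells among kept cells was the first measure compared between genotypes. It was 0.491%, 0.485%, 0% and 0.779% in WT replicates 1 to 4 (9, 7, 0 and 24 cells) and 0.433%, 1.20%, 0.760% and 0.874% in Upf3b-null replicates 1 to 4 (31, 16, 13 and 51 cells). Upf3b-null replicate 1 lay below all WT mice but replicate 3, so the groups overlapped. The means were 0.439% ± 0.323 in WT and 0.817% ± 0.316 in Upf3b-null mice (SD, n = 4 each), and the difference did not pass (two-sided exact permutation test, p = 0.200, smallest p possible 0.0286). Without WT replicate 3 the difference was 0.232 percentage points (exact permutation p = 0.343).

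The denominator of that share held other cells in different amounts, with 0.609% (WT replicate 3) to 24.4% (Upf3b-null replicate 4) of kept cells over the neutrophil limit. A second ratio, chosen after the data were seen, was therefore taken among microvillous cells only, as Trpm5 cells over Trpm5 and ionocyte-like cells together. It was 7.32%, 8.97%, 0% and 6.28% in WT and 9.42%, 21.1%, 11.02% and 13.7% in Upf3b-null replicates 1 to 4. Here every Upf3b-null mouse lay above every WT mouse (means 5.64% ± 3.92 and 13.8% ± 5.15, SD, n = 4 each, two-sided exact permutation p = 0.0286, the smallest possible). As 1 of several shares looked at, this p is not adjusted. Without WT replicate 3 the groups were still apart, at 6.27 percentage points (exact permutation p = 0.0857). With a limit of 5 marker UMIs (p = 0.143) or with every cell thinned to 1500 UMIs before the rule (p = 0.229) the groups overlapped and the exact permutation test did not pass. A further run kept only the Trpm5 cells low in UMIs of other cell types but all ionocyte-like cells. It left 7, 7, 0 and 2 Trpm5 cells in WT and 15, 15, 0 and 2 in Upf3b-null replicates 1 to 4. The difference was then 2.52 points (exact permutation p = 0.8). As 1 class alone was filtered, and unevenly by mouse, this run cannot decide whether the difference depends on such UMIs. With all Trpm5 cells, leaving out WT replicate 1, 2 or 4 or Upf3b-null replicate 2 gave 8.71, 9.26, 8.36 and 5.73 points (exact permutation p = 0.0571 each). Ionocyte-like cells were 7.57% ± 2.90 of kept cells in WT and 5.08% ± 0.912 in Upf3b-null mice (SD, n = 4 each, exact permutation p = 0.114).

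**Figure D4:**
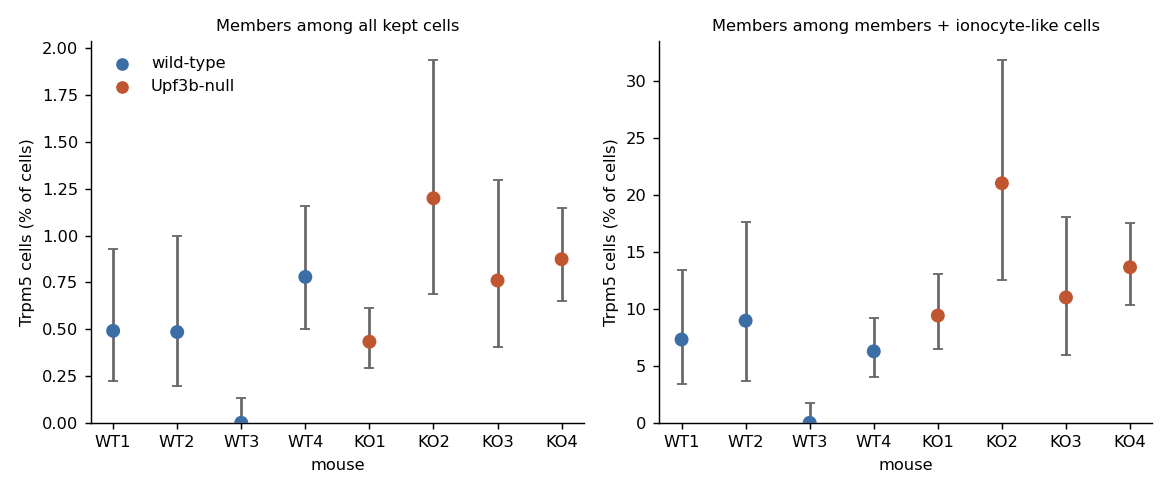
Percent of Trpm5 cells among all kept cells (left) and among Trpm5 plus ionocyte-like cells (right) in each mouse (blue, WT; orange, Upf3b-null), with exact 95% binomial intervals that cover counting error only. The genotypes overlap on the left, and on the right the 4 Upf3b-null mice lie at 9.42% to 21.1% and the WT mice at 0% to 8.97%.

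Median UMIs per Trpm5 cell were 1708, 1644 and 2427 in WT replicates 1, 2 and 4 and 2891, 1961, 2001 and 2323 in Upf3b-null replicates 1 to 4, and the genotypes overlapped (exact permutation p = 0.314 over these 7 mice, smallest p possible 0.0286).

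Gene expression was then compared between Upf3b-null and WT Trpm5 cells. With at least 10 cells per mouse the fit held 1 WT mouse (replicate 4) and the 4 Upf3b-null mice, and the spread of WT mice had to be taken from the Upf3b-null mice. Of 2038 genes tested 0 passed (0% called), 29 had an unadjusted p under 0.05, and DESeq2 called 0. With 1 WT mouse a count of 0 does not show that genes were unchanged. With at least 5 cells per mouse, a limit chosen after seeing the data, 3 WT and 4 Upf3b-null mice entered. Of 639 genes tested 0 passed (0% called), 16 had an unadjusted p under 0.05 and DESeq2 again called 0. The replicate number as a block changed this count. In the 6 mice of that fit, 7 of 1047 genes were higher in Upf3b-null cells and 0 lower.

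In the fits above without a block no gene of the tuft signature or of another list passed. With the block Bpifa1, Wfdc2, Hbb-bt and Retnlg of other lists did. In the fit with 1 WT mouse the median log2 fold change was 0.46 over the 28 signature genes tested and 0.06 over all genes, and in the fit with 3 WT mice it had the opposite sign, -0.10 over 18 signature genes against 0.03 over all genes. Of the NMD and exon junction factors Upf3a and Rbm8a could be tested, and of the RNAs known to be held down by NMD 8, among them Atf4, Atf5, Ddit3 and the splicing factor genes Srsf3 and Tra2b. The median of the latter was -0.10, and -0.24 over the 4 that could be tested with 3 WT mice. Atf4, a stress response factor, stood at 256, 439.8 and 149 CPM in WT replicates 1, 2 and 4 and 128, 99.8, 187 and 187 in the Upf3b-null mice, and Tra2b at 256, 293 and 329 CPM in WT replicates 1, 2 and 4 and 266, 299, 187 and 286 in the Upf3b-null mice, with overlapping genotypes in both. Upf3a, the paralogue of Upf3b, had 17 UMIs in 15 cells.

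The genes with the smallest p in the fit with 1 WT mouse, none of which passed, were Pf4, 5430402E10Rik, Ctss, Apoe and Ncoa6 with lower and U2af1, Ndufa1, Med21, Crip1 and Mrpl32 with higher values in Upf3b-null cells than in WT replicate 4. With 3 WT mice the log2 fold change fell from 3.97 to 0.82 for U2af1 and from 1.53 to 0.22 for Crip1. U2af1 stood at 342, 293 and 14.9 CPM in WT replicates 1, 2 and 4 and 296, 274, 487 and 123 in the Upf3b-null mice, and Crip1 at 939.7, 1613 and 299 CPM and then 1026, 1173, 973 and 555, with overlapping genotypes in both. Pf4, a platelet chemokine gene, stood at 0, 0 and 329 CPM in WT replicates 1, 2 and 4 and 19.7, 0, 0 and 17.5 in Upf3b-null replicates 1 to 4, and WT replicate 4 was the 1 WT mouse with a UMI of it (log2 fold change -4.39, adjusted p = 0.924, edgeR). Apoe, the apolipoprotein E gene, stood at 214, 0 and 2869 CPM in the WT and 1144, 199.6, 225 and 368 in the Upf3b-null mice, which overlapped (log2 fold change -2.55 with 1 WT mouse and -1.16 with 3). Ctss, a lysosomal protease gene of macrophages, stood at 128, 0 and 344 CPM and then 118, 24.95, 0 and 46.7, and the genotypes overlapped. Apoe and Ctss are also expressed by macrophages. The macrophage list had UMIs of all 5 genes in the Trpm5 cells and summed to 2178, 147 and 1539 CPM in WT replicates 1, 2 and 4 and 2308, 125, 262 and 216 in Upf3b-null replicates 1 to 4, with Lyz2 the most abundant (755). In WT replicate 4 a single cell held 91.3% of the UMIs of this list, and the same cell held all 22 Pf4 UMIs of that mouse, 20 of its 23 Ctss UMIs and 143 of its 192 Apoe UMIs. Without that cell WT replicate 4 stood at 0, 49.1 and 802 CPM for the 3 genes, and its macrophage list at 147 CPM. In WT replicate 1 a single cell held 90.2% of the list. Ndufa1, a respiratory chain subunit gene, stood at 342, 806 and 149 CPM in the WT and 592, 624, 636 and 426 in the Upf3b-null mice, so that the genotypes overlapped and WT replicate 2 was highest. Its log2 fold change was 1.84 with 1 WT mouse and 0.79 with 3, and neither passed. It lies on the X chromosome (X:37187588-37191163, GRCm38) close to Upf3b (X:37091678-37110322).

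RNA of other cell types was found in the Trpm5 cells in amounts that differed by mouse. Erythroid genes summed to 384, 73.3 and 8278 CPM in WT replicates 1, 2 and 4 and 602, 74.9, 18009 and 25744 in Upf3b-null replicates 1 to 4, neutrophil genes to 342, 147 and 2854 CPM in WT replicates 1, 2 and 4 and 6076, 175, 6739 and 9439 in Upf3b-null replicates 1 to 4, and gland and respiratory genes to 1068, 73.3 and 2316 CPM in WT replicates 1, 2 and 4 and 19145, 349, 2097 and 18295 in Upf3b-null replicates 1 to 4. WT replicate 2 and Upf3b-null replicate 2 were low throughout, and WT replicate 4 and Upf3b-null replicates 3 and 4 were high in erythroid genes. The most abundant of each list were Hbb-bs (6366 CPM over all Trpm5 cells), S100a8 (2708, limited by the rule) and Bpifa1 (8303). All genes of these 3 lists had UMIs in Trpm5 cells. The gland and respiratory values of Upf3b-null replicates 1 and 4 were each carried mostly by 1 cell, with 91.6% and 70.5% of the UMIs of the list, and without those cells they were 1711 and 5765 CPM. These 2 cells held 1407 and 2075 of the 3682 Bpifa1 UMIs. A single cell likewise held 52.3% of the neutrophil UMIs of Upf3b-null replicate 1 (3056 CPM without it), and 84.4% of the 739 UMIs of the lipocalin gene Lcn3 were in 1 cell, with 624. Of the sustentacular genes all 8 were detected, the 3 limited by the rule included, at 2307, 147 and 1151 CPM in WT replicates 1, 2 and 4 and 1459.8, 149.7, 524 and 1465 in Upf3b-null replicates 1 to 4, with Cbr2 the most abundant (469). In WT replicate 1 a single cell held 96.3% of these UMIs. Of 41 genes tested on the 14 lists of other cell types, 35 did not pass against ionocyte-like cells, none was lower and 6 were higher (14.6%, beside 10.2% of all genes tested). The 6 were Lcn2, Cd79b, Bpifb3, Dcpp3, Rsph1 and Gpx6 (0.78, 2.72, 1.29, 1.35, 1.56 and 1.30 on the log2 scale). How much of the other results comes from such RNA was not tested.

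Genes of mature olfactory sensory neurons (mOSNs) were present as well. Omp, the classical marker of mOSNs, had UMIs in 64.2% of Trpm5 cells, 62.0% of ionocyte-like and 60.6% of sustentacular-like cells, at median depths of 2347, 2914.5 and 4628 UMIs, and in 75.4% of the remaining kept cells. After thinning the shares were 49.0%, 46.0%, 34.2% and 64.2%. None of the 6 mOSN genes tested passed between Trpm5 and ionocyte-like cells, beside 23.9% of all genes tested. The list summed to 2307, 293 and 2555 CPM in WT replicates 1, 2 and 4 and 3945, 1348, 1011 and 1494 in Upf3b-null replicates 1 to 4, and Upf3b-null replicate 1 was high. A single cell held 98.1% of these UMIs in WT replicate 1 and 92.6% in Upf3b-null replicate 2, against 14.2% in Upf3b-null replicate 1. A group of 18 Trpm5 cells, 12 of them from that mouse, had at least 0.5% of their UMIs from mOSN genes, and all 18 had Omp and Stoml3. They had 2942 Omp CPM against 391 in the other 133. Rgs13, Lrmp and Adgrg6 were each found in 94.4% of them, at 966, 924 and 639 CPM against 1472, 1595 and 1171 in the others, and Ptgs1 in 50% against 74.4% of cells. Their median depth was 3511.5 UMIs, against 2265 in the others. The basal and progenitor list summed to 338 CPM, against 362 in ionocyte-like, 125 in sustentacular-like and 378 in the remaining kept cells, with Hes6 the most abundant (200.7) and Neurog1 at 0. Hes6 and Kit did not pass against ionocyte-like cells and were higher than in sustentacular-like cells (1.61 and 3.91 on the log2 scale). Of the proliferation genes the most abundant was Pcna (45.1).

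**Figure D5:**
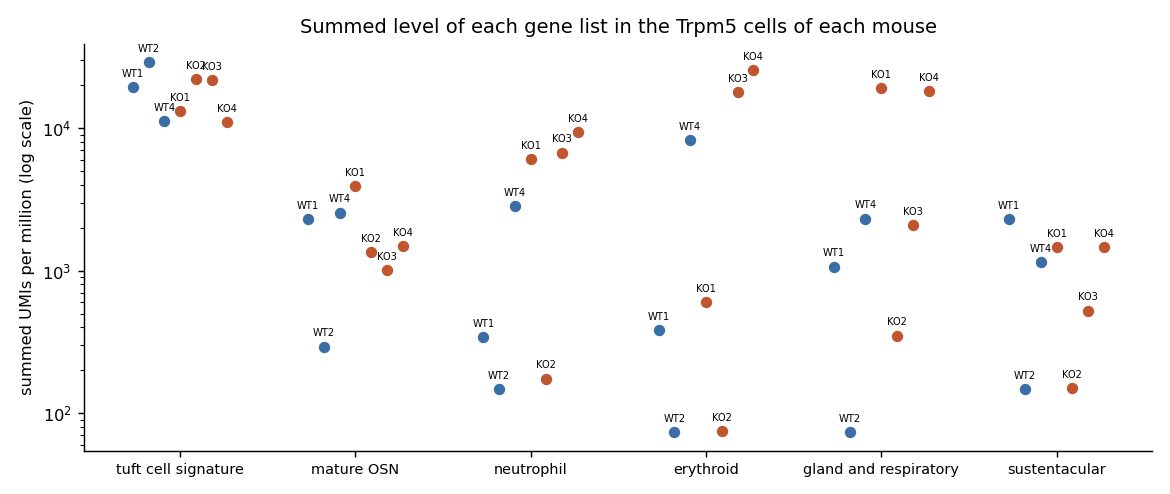
Summed CPM (log scale) of 6 gene lists in the Trpm5 cells of each mouse (blue, WT; orange, Upf3b-null). The tuft cell signature varies from 11004 to 28953, and the erythroid list from 73.3 to 25744.

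Since members of the POU family bind the octamer ATGCAAAT, promoters were searched for it on both strands (as read and as its reverse complement, with no other motif searched) in windows from 250 bases before to 50 after the start site (RefSeq, GRCm38.p6). Of the 4 rule genes and the 24 genes named as higher, 21 had a promoter in the table and 1 of them held the octamer, against 1.97% of 27025 genes. That gene was 1810046K07Rik, shown because it is the one match. The window with the octamer in capitals lies at chr9:51328986-51329015 on the minus strand, and the octamer begins 86 bases before the start site.
1810046K07Rik: ctgcattggggATGCAAATtggagagaaac
The match describes letters, not a bound site, and the lack of one in the other 20 says nothing of POU2F3 there.

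The bulk libraries of the series came from sorted mOSNs (RNA-seq, 4 WT and 4 Upf3b-null, with Omp-Cre and R26-eYFP) and from ribosomes tagged through Omp-Cre (RiboTag, 3 and 3), and each was a pool of 3 male mice of 8 to 9 weeks. They bear on Trpm5 cells only as a background. In bulk samples fewer cells of a type and less RNA per cell cannot be told apart. The Trpm5 transcript had at most 1.95 CPM in RNA-seq (a count in 5 of 8 libraries) and none in the 6 RiboTag libraries. Avil had 0 to 4.93 and 0.172 to 0.860 CPM, and Sh2d6 0 to 9.38 and 0 to 0.265. The single Pou2f3 transcript was higher, at 16.9 to 27.9 CPM in RNA-seq and 34.2 to 79.9 in RiboTag. Adgrg6 reached 184 and Cyp2g1, a sustentacular gene, 1019 CPM in RNA-seq. Omp stood at 1216 to 3150.1 CPM, but its counts were nearly the same in all 8 RNA-seq libraries (3763 to 3992) whatever their depth. Its CPM thus follows the library size, and the other genes cannot be measured against it.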

How the data were processed

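Per the study's methods and the labels, dissociated OE cells were run on the 10x Chromium platform and read with Cell Ranger against mm10. The authors deposited raw counts, UMIs per gene and barcode, for 8 libraries, and raw counts per transcript for the bulk libraries (STAR 2.5.2b, featureCounts and DESeq2 are named in the submitters' processing notes). Of 23010 transcripts 22646 were matched to a symbol. From these counts cells were filtered and classed as described, UMIs were summed per mouse and class, and genes were tested with edgeR 4.0.16 (TMM, filtered on low counts, quasi-likelihood, Benjamini-Hochberg, limma 3.58.1, R 4.3.3), with DESeq2 1.42.0 as an alternative. Shares were tested over mice by exact permutation (python 3.11.15, numpy 2.4.6, scipy 1.17.1, pandas 2.3.3, figures with matplotlib 3.10.9). Mice are separate animals by the methods.

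The members and the 28 gene lists were chosen with earlier results of these data known. Named genes were the up to 6 most abundant of a list, defining markers at 0, the genes with the largest log2 fold change among those past the test, found in at least 25% of cells and changed alike in every mouse (20 higher and 8 lower against ionocyte-like, 10 against sustentacular-like cells), the 5 with the smallest p in each direction between genotypes, and the 8 most like Trpm5. Genes of the Rgs21 cells and those held by 1 or 2 cells were picked after their values were seen. No doublet caller was run, and 6 Trpm5 cells had over 3 times the median UMIs. Near-identical genes such as the haemoglobins share reads. A few genes that the rules would name are not reported here. Intervals and floors cover counting error only. The scripts were tested on simulated data.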

Additional observations from a re-analysis of the deposited data

Results flagged for a closer look

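In groups of 4 mice a value was marked where its gap to the nearest other mouse was a large part of the group's range (Dixon's test). Of 26 groups examined 4 were marked, and chance alone marks about 1 in 20 groups. Of the groups 23 were of Upf3b-null and 3 of WT mice, since 3 WT mice held Trpm5 cells, and the 4 marked were Upf3b-null. Il25 in the Trpm5 cells of Upf3b-null replicate 2 stood at 1173 CPM, far above the other 3. Among the Upf3b-null mice Sct was also highest in replicate 2, at 549 CPM. These cells numbered 16. The summed mOSN genes in the Trpm5 cells of Upf3b-null replicate 1 stood at 3945 CPM. Upf3b itself was at 9.86 CPM in the same mouse, which is 1 UMI, against 0 in the other 3 Upf3b-null mice.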

How the results depend on the processing

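The share of Trpm5 cells did not pass under any alternative run, at 0.232 to 0.506 percentage points with a mouse left out. Among microvillous cells the difference of 8.15 points fell to 4.18 at 5 marker UMIs and 5.40 after thinning, and did not pass. With only Trpm5 cells low in other RNA but all ionocyte-like cells it was 2.52 and did not pass. It was 5.73 to 9.60 with a mouse left out (exact permutation p from 0.0286 to 0.0857). With 10 cells per mouse the median UMIs per Trpm5 cell rest on 1 WT mouse, so the difference (Upf3b-null minus WT) of -133 gives no direction. It was 8.61 by the mean and 367.7 with 5 cells per mouse (3 WT mice). Of the alternative values for shares of Trpm5 cells with a UMI of a gene, 7 moved and 1 stayed the same. The causes were not tested.

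Replicate numbers were not taken to pair the mice, but a pairing by number is not settled. Over all kept cells same-numbered mice correlated at 0.419, 0.584, -0.345 and 0.804, and over Trpm5 cells at 0.090, 0.118 and 0.341 (replicates 1, 2 and 4). Mice of different numbers correlated at -0.820 to 0.702 over all kept cells and at -0.194 to 0.135 over Trpm5 cells. The same-numbered WT mouse was the closest to Upf3b-null replicates 1, 2 and 4, but not to replicate 3. With the replicate block the share among microvillous cells was still 8.15 points (exact permutation p = 0.125, the smallest possible), the UMI difference 465.3, and, at 5 cells per mouse in 6 mice, 7 genes were higher and 0 lower in Upf3b-null cells (Obp2a, Bpifa1, Wfdc2, S100a9, Hbb-bt, Retnlg and Malat1, of which the rule limits S100a9). The other calls between genotypes came from fits with 1 WT mouse (replicate 4), which give no spread of WT mice. Reg3g was called higher with 20 cells per mouse, a fit of 3 mice. Pf4 and Apoe were lower with no filter, Apoe without Upf3b-null replicate 1, and Obp1a and mt-Atp8 without replicate 4. Few cells held some of these genes, with 97.0% of the 839 Reg3g UMIs in 10 Trpm5 cells and 94.6% of the 3682 Bpifa1 UMIs in 2. With 5 cells per mouse and without WT replicate 4, U2af1 (-0.019), Crip1 (-0.21) and Apoe (2.24) changed sign on the log2 scale.

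Against ionocyte-like cells, genes higher and lower were 214 and 272 with no mouse block, 220 and 208 with cells low in other RNA, 229 and 347 in WT mice alone with 5 cells per mouse, and 390 and 1042 with no filter, where 27.2% of calls were higher in place of 42.9%. Against sustentacular-like cells they were 221 and 349, 134 and 184, 221 and 395, and 526 and 1249 (29.6% in place of 40.8%). Leaving out a mouse gave 341 to 450 and 482 to 601, and 327 to 610 and 427 to 840, the lowest without Upf3b-null replicate 4 but for the 482, which was without WT replicate 4. Fewer mice or genes entered several of these fits. All 383 and 127 alternative values of the named genes kept their direction and call, in genes chosen for their change in the same cells. Between genotypes the fits with 5 marker UMIs, with cells low in other RNA, with the block at 10 cells per mouse and without WT replicate 4, and the class fits in WT mice alone at 10 cells, could not be fitted.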
